A study of Homo sapiens with 9 samples.

Results

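The ribosomal proteins of the cytosol and of the mitochondrion were examined in HEK293 cells, an established line of human embryonic kidney origin, after siRNA against DBC1 or ZNF326. Members were the probe sets with 1 annotated gene symbol that begins with RPL or RPS and a digit, other than RPS6K, is RPLP0 to RPLP2 or RPSA, or begins with MRPL or MRPS and a digit. This gave 112 of 22011 probe sets, which stand for 107 genes: 47 probe sets in the cytosolic and 65 in the mitochondrial set. All cells were HEK293 grown in DMEM with serum and taken 48 h after transfection. One group received the control stealth siRNA (siCTR), another a stealth siRNA against DBC1, whose current symbol is CCAR2 (siDBC1), and the last one against ZNF326, also called ZIRD (siZNF326). Each group held 3 arrays from experiments that the design describes as independent, 9 arrays in all. The line is 1 cell line, the depletion was transient, and no untransfected cells were among the groups. DBC1 and ZNF326 form the DBIRD complex, which binds RNA polymerase II and messenger ribonucleoprotein particles, and the study asked how its depletion affects gene expression and splicing.

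The cytosolic ribosome translates nuclear-encoded messenger RNAs, whereas the mitochondrial ribosome translates the few messenger RNAs of the mitochondrial genome, which encode subunits of the respiratory chain and ATP synthase. Both sets of proteins are encoded in the nucleus and made in the cytosol. Messenger RNAs of cytosolic ribosomal proteins usually begin with a terminal oligopyrimidine (TOP) tract, a C followed by a run of C and T, through which the growth-regulating kinase complex mTORC1 and the RNA-binding protein LARP1 control their translation. These messengers are abundant, and most of their genes have processed copies elsewhere in the genome.

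The cytosolic set held 31 probe sets of 26 genes that encode core ribosomal proteins, 18 probe sets for the large subunit and 13 for the small. It also held 6 paralogous copies (RPL3L, RPL10L, RPL36AL, RPL39L, RPS27L and RPS4Y2), 8 pseudogenes, the divergent transcript RPL34-DT, and RPS19BP1. The last encodes AROS, a regulator of the deacetylase SIRT1 and no ribosomal protein, but its symbol fits the rule. The mitochondrial set held 42 proteins of the large subunit and 23 of the small, each with 1 probe set. A further 59 probe sets carried several symbols of which at least 1 fitted, and they were left out. Core genes such as RPLP0, RPSA, RPL5, RPL3 and RPS27 had no probe set with their symbol alone and were not analysed here. RPL14, RPL27A, RPL41, RPS19 and RPS25 had 2 probe sets each. Because processed copies resemble their parent genes, a cytosolic member's probe set cannot be assigned with certainty to the named gene alone.

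The start regions of members that recur in the results show how the sets differ in sequence. Each line runs from 30 bases before the annotated start to the first 20 bases of the transcript, from RefSeq on GRCh38.p14, on the strand of the gene. Capitals mark the longest run of a C followed by at least 4 letters that are each C or T, within 20 bases on either side of the start. RPS6, RPS24, RPS19 and RPL18 stand for cytosolic genes with such a run, RPS4X and RPS27L for those without one, and RPL36AL is the copy of RPL36A.
RPS6 (chr9:19380217-19380266, minus strand): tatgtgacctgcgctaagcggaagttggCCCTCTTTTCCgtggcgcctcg
RPS24 (chr10:78033833-78033882, plus strand): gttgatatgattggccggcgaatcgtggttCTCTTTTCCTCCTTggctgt
RPS19 (chr19:41860225-41860274, plus strand): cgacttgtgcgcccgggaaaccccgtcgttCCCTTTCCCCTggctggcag
RPL18 (chr19:48619159-48619208, minus strand): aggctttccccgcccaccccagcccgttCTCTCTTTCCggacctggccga
RPL36AL (chr14:49620607-49620656, minus strand): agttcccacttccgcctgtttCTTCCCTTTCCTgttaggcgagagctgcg
RPS4X (chrX:72277229-72277278, minus strand): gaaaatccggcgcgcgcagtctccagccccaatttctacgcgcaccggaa
RPS27L (chr15:63157458-63157507, minus strand): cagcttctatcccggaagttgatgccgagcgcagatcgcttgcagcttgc
The mitochondrial members below are 5 of those whose arrays did not overlap between groups in a comparison described later.
MRPL33 (chr2:27771689-27771738, plus strand): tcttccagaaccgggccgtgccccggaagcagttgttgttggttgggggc
MRPL41 (chr9:137551849-137551898, plus strand): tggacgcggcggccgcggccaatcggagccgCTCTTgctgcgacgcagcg
MRPS34 (chr16:1773115-1773164, minus strand): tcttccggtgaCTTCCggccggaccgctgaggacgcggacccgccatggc
MRPS16 (chr10:73252625-73252674, minus strand): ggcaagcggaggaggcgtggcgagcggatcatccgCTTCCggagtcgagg
MRPS5 (chr2:95121789-95121838, minus strand): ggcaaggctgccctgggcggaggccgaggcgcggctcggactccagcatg

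The annotated start was itself a C followed by at least 4 letters C or T in 18 of the 24 core cytosolic genes with a promoter in the table (75%). This held for 3 of 58 mitochondrial genes (5.17%) and for 4.6% of 15842 promoters of protein-coding genes. The median longest run was 11 letters in the cytosolic core and 0 in the mitochondrial set. Anywhere in the 40 bases around the start, a run occurred in 22 cytosolic genes (91.7%), 26 mitochondrial genes (44.8%) and 47.4% of protein-coding genes, so the mitochondrial share was close to that of all genes. Over the 300 bases of each promoter window and on both strands, the core letters of the ETS motif, CCGGAAG, occurred in 23 of 58 mitochondrial genes (39.7%), 8 of 24 cytosolic genes (33.3%) and 14.2% of protein-coding promoters. The reverse complement of these letters, CTTCCGG, can overlap a run of C and T, as it does in MRPS34 and MRPS16. The core of the NRF1 motif, GCGCATGC, a factor known for nuclear genes of mitochondrial function, occurred in 5 mitochondrial genes (8.62%), 1 cytosolic gene (4.17%) and 4.26% of protein-coding promoters. These are matches of letters and not measured binding sites.

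**Figure D1:**
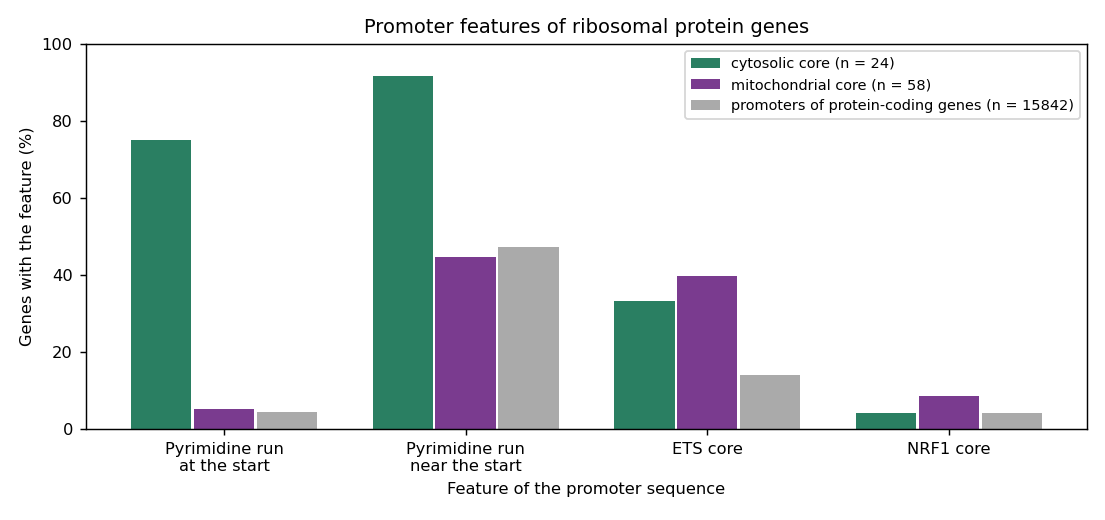
Share of promoters (percent) that hold each sequence feature, for the core cytosolic genes, the mitochondrial genes and all protein-coding promoters of the RefSeq table. The run of C and T at the start reaches 75% in the cytosolic core against 5.17% in the mitochondrial set, while the ETS core letters lie at 33.3% and 39.7%.

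The values are log2 expression values made by the authors with RMA, 1 value per probe set and array. Array medians lay between 5.58 and 5.90, and correlations between arrays over all probe sets between 0.953 and 0.988. CCAR2 fell in siDBC1, with a log2 difference from siCTR of −1.16 (SE 0.079, 3 arrays a group, limma adjusted p = 0.0116). ZNF326 differed by 0.28 in the siZNF326 arrays (SE 0.39, limma adjusted p = 0.851), so its transcript was not lower there, and results for that group refer to the arrays labelled siZNF326. The 8 measured HEK293 markers, among them KRT8, KRT18 and VIM, had siCTR means of 5.84 to 10.4, and 9 markers of other cell types, among them PTPRC and ALB, of 1.72 to 6.47. In bulk RNA, fewer cells of a type and less RNA per cell cannot be told apart.

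Arrays of the same group stood apart from each other, and the mitochondrial set showed that split with larger medians than the cytosolic set. Each member's distance from its mean over the siCTR arrays was taken, and the median over each set was read per array. In the mitochondrial set the median distance was −0.068, −0.052 and 0.12 in the siCTR arrays, 0.042, −0.30 and 0.33 in siDBC1, and 0.22, 0.055 and 0.013 in the arrays labelled siZNF326. The second siDBC1 array was thus the lowest of all 9 and the third the highest. In the second, 51 of 65 mitochondrial members lay below their siCTR mean (78.5%), and in the third, 8 of 65 did (12.3%). Small subunit members showed the deeper low, with 21 of 23 below their siCTR mean on the second siDBC1 array and a median of −0.44, against −0.23 for the large subunit.

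The median of the cytosolic members stayed nearer to 0 on the same arrays. Their median distance was −0.080, −0.022 and 0.041 in siCTR, 0.027, −0.027 and 0.0084 in siDBC1, and 0.0035, 0.033 and −0.014 in the arrays labelled siZNF326. On the second siDBC1 array 25 of 47 lay below their siCTR mean, a near even split in which members stood on both sides: the quartiles were −0.39 and 0.16, against −0.52 and −0.047 in the mitochondrial set. The cytosolic minus mitochondrial median was 0.27 on that array, −0.33 on the third siDBC1 array and −0.21 on the first siZNF326 array, and between −0.080 and 0.030 on the other 6. Among the 31 core probe sets alone the median ran from −0.079 to 0.10. By subunit, the second siDBC1 array gave −0.27 for the 18 core probe sets of the cytosolic large subunit, as low as the −0.23 of the mitochondrial large subunit, and −0.027 for the 13 of the cytosolic small subunit. On the third siDBC1 array the cytosolic subunits were at 0.076 and 0.11, below the mitochondrial ones.

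The whole table moved in the same arrays. The median distance over all probe sets was −0.060 on the second siDBC1 array, 0.085 on the third and 0.075 on the first siZNF326 array. Over the 11005 probe sets above the median level these were −0.20, 0.19 and 0.21, so the mitochondrial set's −0.30, 0.33 and 0.22 were of the same sign and of similar or larger size. Deviations from the group means, over all probe sets, correlated at 0.61 between the third siDBC1 and the first siZNF326 array and at −0.57 between the second siDBC1 and the first siZNF326 array. The part of this array split in the members' values was not tested.

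**Figure D2:**
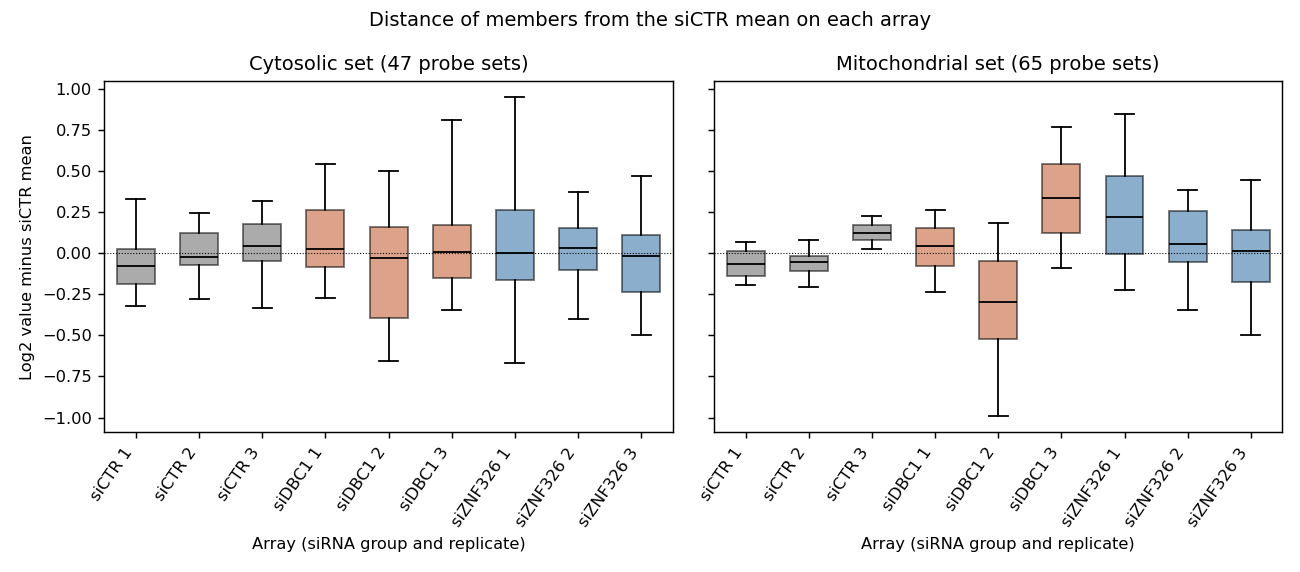
Distance of each member from its own siCTR mean (log2) on each of the 9 arrays, with the cytosolic set on the left and the mitochondrial set on the right. Boxes run from the lower to the upper quartile, lines are medians and whiskers run from the 5th to the 95th percentile. The mitochondrial median swings from −0.30 to 0.33 between arrays of siDBC1 while the cytosolic median stays between −0.080 and 0.041.

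After DBC1 siRNA no ribosomal protein of either set passed the test. With limma and p values adjusted over all 22011 probe sets, 0 of 47 cytosolic and 0 of 65 mitochondrial members were called, where 0.0363% of all probe sets were. At an unadjusted p under 0.05 there was 1 cytosolic member and there were 3 mitochondrial members, beside 6.18% of all probe sets. The median difference was 0.022 in the cytosolic set, 0.031 in the mitochondrial set and 0.014 over all probe sets. The means of 25 of 47 cytosolic (53.2%) and 36 of 65 mitochondrial members (55.4%) lay above siCTR, as did 53.8% of all probe sets. Both sets were near or below the background in these counts.

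The mitochondrial median after DBC1 siRNA rested on single arrays. It was 0.19 without the second siDBC1 array and −0.12 without the third, which turns its sign. The subunits lay on opposite sides of zero, with a median of 0.052 and 31 of 42 means above siCTR in the large subunit, and −0.081 and 5 of 23 above in the small. On each of the 3 siDBC1 arrays the small subunit's median lay below that of the large: −0.025 against 0.081, −0.44 against −0.23, and 0.29 against 0.34. The same order held on the 3 arrays labelled siZNF326, at 0.16 against 0.30, 0.025 against 0.089, and −0.049 against 0.032. The order was thus seen in both siRNA groups, but both are measured from the same siCTR means. By counts the split was wider in siDBC1. In the arrays labelled siZNF326, 26 of 42 large and 13 of 23 small subunit means lay above siCTR. In siZNF326 against siDBC1 the small subunit had the higher median, 0.16 against 0.062. No test was made of the difference between subunits, since the members were chosen with results known.

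Groups did not overlap for 1 cytosolic member, below siCTR, and for 6 mitochondrial members, 5 above and 1 below. That is 2.13% and 9.23% of the sets, against 8.84% of all probe sets (5.18% above and 3.66% below). The cytosolic member was RPL36AL, an expressed autosomal copy of the X-linked large subunit gene RPL36A. Its values were 9.20, 9.55 and 9.54 in siCTR, 9.14, 9.05 and 8.81 in siDBC1, and 9.46, 9.35 and 9.39 in the arrays labelled siZNF326. All siDBC1 arrays were the lowest, the first by a narrow margin below the first siCTR array. The difference from siCTR was −0.43 (SE 0.13, limma adjusted p = 0.579) and did not pass.

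Among small subunit mitochondrial proteins MRPS5 lay lower in siDBC1. It read 7.83, 7.64 and 7.85 in siCTR, 7.34, 6.47 and 7.49 in siDBC1, and 7.80, 7.70 and 7.72 in the arrays labelled siZNF326. The 3 siDBC1 arrays were the lowest of the 9, the second by far, and the other groups overlapped closely. The difference was −0.67 (SE 0.24, limma adjusted p = 0.731), and −0.36 when the second siDBC1 array was left out. MRPS17, also of the small subunit, read 7.31, 2.52 and 8.04 in siDBC1 and had a within-group SD of 1.80, the widest of the mitochondrial set. The low second siDBC1 value alone sets the siDBC1 mean of MRPS17.

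Of the 5 mitochondrial members above siCTR without overlap, 4 were large subunit proteins. MRPL28 read 7.83, 7.92 and 8.05 in siCTR and 8.17, 8.10 and 8.43 in siDBC1. All siDBC1 arrays lay above all siCTR arrays, by a difference of 0.30 (limma adjusted p = 0.778). MRPL23, which sits at the exit of the mitoribosomal tunnel, differed by 0.45, MRPL11 by 0.22, and the small subunit protein MRPS7 by 0.21. MRPS11, whose groups touched at an equal value, differed by 0.22, and MRPL17, whose groups overlapped, by 0.21. MRPS7 was at 0.12 without the first siCTR array and MRPL23 at 0.30 without the third siDBC1 array. None of these passed.

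No core cytosolic protein stood apart from siCTR without overlap in siDBC1. RPS6, the small subunit protein phosphorylated by S6 kinase, read 9.74, 9.97 and 9.94 in siCTR and 9.89, 9.86 and 9.76 in siDBC1, a difference of −0.047. RPL11, which binds MDM2 when ribosome assembly is disturbed, differed by −0.024 (SE 0.25). RPL6 differed by 0.34 and RPL35A by 0.28, both large subunit proteins whose arrays overlapped between groups. The copy RPL39L differed by −0.31, and the muscle-type copy RPL3L by −0.043. Without the second siDBC1 array RPL35A was at 0.16 and RPL39L at −0.18, RPL39L was at −0.21 without the third siCTR array, and RPL6 was at 0.22 without the first siDBC1 array. The 95% interval of the difference lay within 2-fold in either direction for 40 of 47 cytosolic and 58 of 65 mitochondrial members, with a median reach of 0.42 and 0.43 on either side on the log2 scale.

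**Figure D3:**
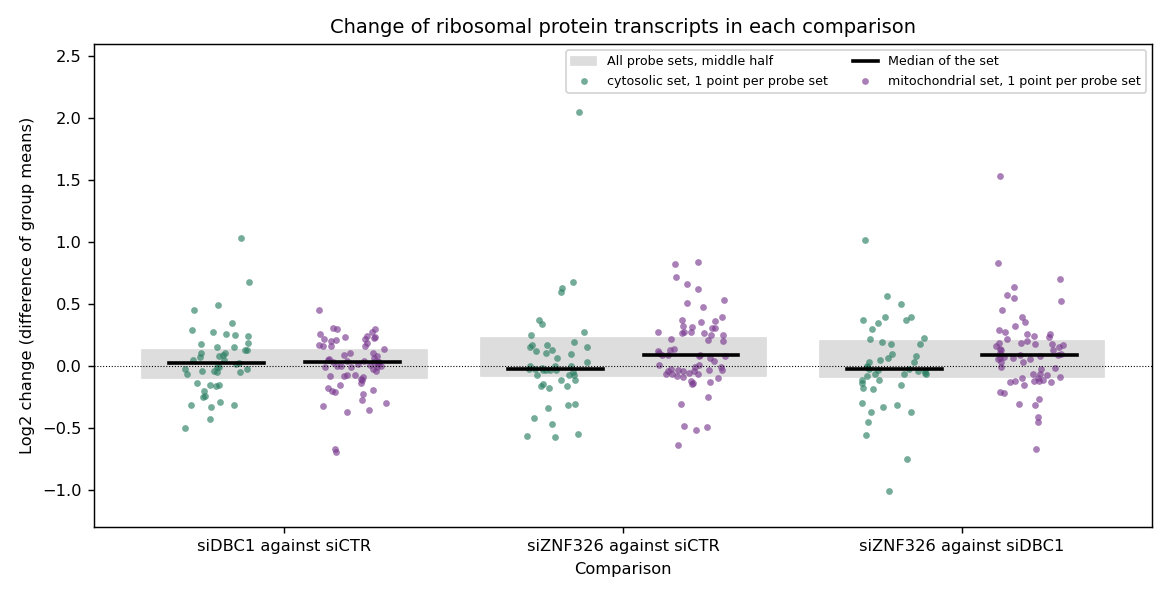
Difference of each member from the comparison group (log2) in the 3 comparisons, for the cytosolic (green) and mitochondrial (purple) sets. Points are probe sets, black lines the set medians, and the grey band runs from the lower to the upper quartile of all probe sets. No member was called in any comparison, and the set medians lie between −0.027 and 0.085.

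In the arrays labelled siZNF326 mitochondrial members lay both above and below siCTR without overlap, and none passed the test. With limma 0 of 47 cytosolic and 0 of 65 mitochondrial members were called, beside 0.15% of all probe sets. At an unadjusted p under 0.05 there were 3 cytosolic members, all lower, and 9 mitochondrial members, 5 higher and 4 lower, beside 8.65% of all. The median difference from siCTR was −0.025 in the cytosolic and 0.084 in the mitochondrial set, against 0.032 over all probe sets and 0.090 over those above the median level. Means above siCTR were found for 21 of 47 cytosolic (44.7%), 39 of 65 mitochondrial (60%) and 56.6% of all probe sets, and for 65.8% of those above the median level. The sign of the mitochondrial median and of that of all probe sets depends on scaling. Centring shifts all probe sets of an array alike, whereas quantile normalization shifts each by its level. After quantile normalization the mitochondrial median was −0.032 and that of all probe sets −0.039, and with arrays centred on their medians −0.0080 and −0.059. The mitochondrial median thus lay above that of all probe sets in each, but only narrowly after quantile normalization.

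The groups did not overlap for 9 cytosolic members, 4 above and 5 below siCTR, and for 18 mitochondrial members, 13 above and 5 below. These are 19.1% and 27.7% of the sets, against 18.2% of all probe sets (12.9% above and 5.27% below) and 24.1% of those above the median level. Over both directions together, the cytosolic share was near the background of all probe sets, and the mitochondrial share near that of the better expressed ones. By direction, more cytosolic members lay below siCTR than above it, whereas more of all probe sets lay above. Among the 31 core cytosolic probe sets the share was 12.9%, 1 above and 3 below siCTR, which is under both backgrounds. The remaining cytosolic members without overlap were paralogous copies and pseudogenes.

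MRPL15, a large subunit protein of the mitoribosome, had the smallest adjusted p of all members. It read 8.05, 8.26 and 8.23 in siCTR, 8.20, 7.86 and 7.90 in siDBC1, and 7.46, 7.67 and 7.48 in the arrays labelled siZNF326. The 3 siZNF326 arrays lay below the other 6, with no overlap. The difference from siCTR was −0.64 (SE 0.12, 95% interval −0.92 to −0.36), and the limma adjusted p of 0.120 missed the threshold. Left-out arrays gave −0.71 to −0.60.

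The small subunit proteins MRPS34 and MRPS16, the latter related to bacterial S16, stood lower in the same arrays. MRPS34 read 8.75, 8.90 and 9.18 in siCTR, 8.73, 8.65 and 8.86 in siDBC1, and 8.56, 8.52 and 8.19 in the arrays labelled siZNF326. Its difference from siCTR was −0.52 (SE 0.14, limma adjusted p = 0.326). MRPS16 read 9.0, 9.15 and 9.39 in siCTR, 9.29, 9.14 and 9.64 in siDBC1, and 8.97, 8.67 and 8.41 in the arrays labelled siZNF326. For both genes the siZNF326 arrays were the lowest 3, but the margin to the nearest siCTR array of MRPS16 was small. The difference of MRPS16 was −0.50 (limma adjusted p = 0.516), and that of MRPL2 of the large subunit −0.25 without overlap, or −0.16 without the third siCTR array. MRPL10, at −0.49, overlapped siCTR on 1 array and was called after quantile normalization alone (limma adjusted p = 0.0465, with 0.0465 to 0.872 over all settings tried); it was chosen after its values were seen.

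Other large subunit proteins of the mitoribosome stood higher in the arrays labelled siZNF326. MRPL33 read 4.11, 4.06 and 3.98 in siCTR, 3.89, 3.58 and 4.33 in siDBC1, and 4.83, 4.37 and 5.09 in the arrays labelled siZNF326. The latter were the 3 highest, and the difference from siCTR was 0.71 (SE 0.23, limma adjusted p = 0.402). MRPL35 read 6.18, 6.21 and 6.60 in siCTR and 7.18, 6.96 and 6.84 in the arrays labelled siZNF326, a difference of 0.66 (limma adjusted p = 0.527). In siDBC1 MRPL35 spanned 5.88 to 6.85, from below siCTR into the range of the siZNF326 arrays. MRPL41 read 6.87, 7.25 and 6.97 in siCTR and 8.19, 8.11 and 7.26 in the arrays labelled siZNF326. The lowest siZNF326 array barely exceeded the second siCTR array, and the difference was 0.82 (SE 0.34, limma adjusted p = 0.562).

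MRPS17 gave the largest mean difference of the mitochondrial members, 0.84, with an SE of 1.30 and a limma adjusted p of 0.867. The difference of MRPS17 was smaller than its own spread, and 0.37 without the second siCTR array. MRPL27 and MRPS11 differed by 0.27 and 0.25 with narrow groups, and MRPL27 by 0.17 without the first siCTR array. MRPL27 read 6.59, 6.89 and 6.87 in siCTR, 6.96, 6.95 and 6.99 in siDBC1, and 7.09, 7.09 and 6.98 in the arrays labelled siZNF326. MRPL27 and MRPL11 were the 2 members that lay above siCTR without overlap in both siRNA groups, and 0 cytosolic members did so. Both comparisons share the siCTR arrays.

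Core cytosolic proteins that lay lower in the arrays labelled siZNF326 belonged to both subunits. RPL8 read 11.0, 11.2 and 11.2 in siCTR, 11.0, 11.0 and 10.9 in siDBC1, and 10.9, 10.9 and 10.6 in the arrays labelled siZNF326. Its difference from siCTR was −0.31 (SE 0.11, limma adjusted p = 0.488). RPS4X, the X-linked gene of a small subunit protein, read 7.70, 7.85 and 8.12 in siCTR, 7.92, 7.55 and 8.05 in siDBC1, and 7.52, 7.54 and 7.34 in the arrays labelled siZNF326. The siZNF326 arrays were the lowest 3 for RPS4X, and the difference was −0.42 (SE 0.16, limma adjusted p = 0.508). RPL18 differed by −0.16 (limma adjusted p = 0.600), with small spread in every group.

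By the 1 annotated start read per gene, RPL18 has the pyrimidine run shown above and RPS4X has none. Other starts of these genes were not looked at, and a link between the kind of start and lower values was not tested. RPS6 and RPS24, which have the run, differed by −0.074 and 0.15, both less than 2 times their standard error. RPL11 differed by −0.051. RPL41, which encodes the shortest protein of the ribosome, differed by 0.68 on 1 probe set and by 0.63 on the other, with within-group SDs of 0.49 and 0.52. The 2 probe sets of RPS19, a gene mutated in Diamond-Blackfan anaemia, gave −0.034 and −0.31, and those of RPS25 gave −0.18 and 0.34. The signs of the RPS25 probe sets disagree.

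The widest spread in the cytosolic set was that of a copy. RPS27L, a copy of the small subunit gene RPS27 and a known p53 target, read 2.61, 2.55 and 4.11 in siCTR, 3.36, 3.15 and 5.88 in siDBC1, and 6.85, 4.27 and 4.32 in the arrays labelled siZNF326. The siZNF326 arrays lay above all siCTR arrays, but the highest siDBC1 value lay between them. The difference of RPS27L from siCTR was 2.05 with an SE of 0.96 (limma adjusted p = 0.603), and 1.20 without the first siZNF326 array. Its 2 highest values fell on the third siDBC1 and the first siZNF326 array, those that stood apart over all probe sets. Pseudogenes RPL21P44, RPS20P27 and RPL13AP3 differed by −0.47, 0.19 and 0.16 without overlap. RPS20P27 was at 0.11 without the first siZNF326 array and RPL13AP3 at 0.047 without the second. RPS4Y2, whose gene lies on chromosome Y, was also counted below siCTR without overlap. Its level was low, with a siCTR mean of 3.35, and it differed by −0.34, or −0.11 without the first siZNF326 array. Whether its signal comes from the named gene was not tested. The copies RPL3L, RPL39L and RPL36AL differed by −0.076, 0.032 and −0.031. The 95% interval lay within 2-fold for 39 of 47 cytosolic and 53 of 65 mitochondrial members.

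**Figure D4:**
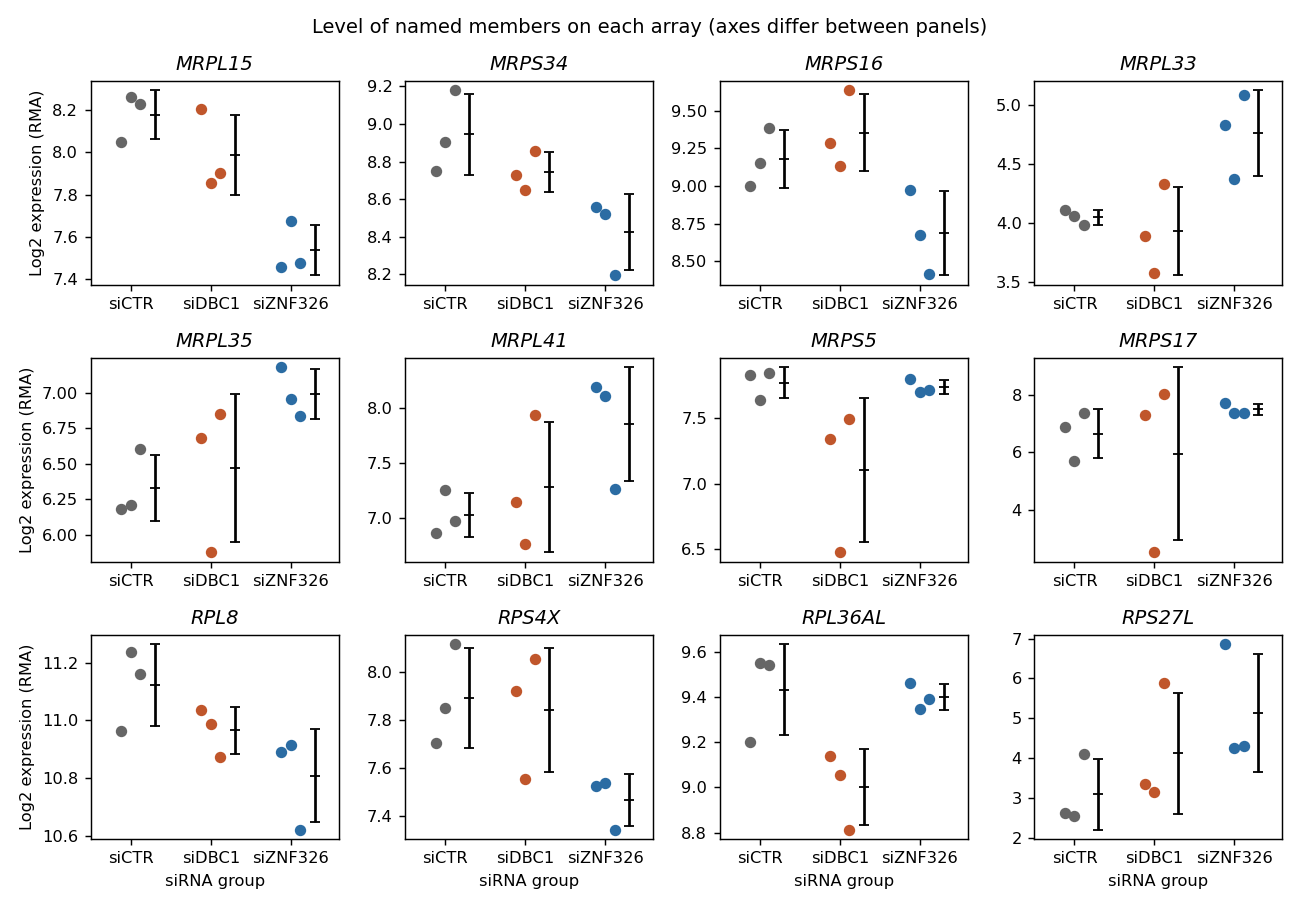
Log2 level on each array for 12 members whose groups did not overlap in a comparison or whose spread is described in the text. Points are arrays, and bars mark the mean ± SD of 3 arrays a group. MRPL15 is lowest on the 3 siZNF326 arrays (7.46 to 7.67), RPL36AL on the 3 siDBC1 arrays, and RPS27L ranges from 2.55 to 6.85.

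The arrays labelled siZNF326 were also set against siDBC1. The siCTR arrays do not enter these differences, but they enter the standard errors and p-values through the common fit. With limma 0 of 47 cytosolic and 0 of 65 mitochondrial members were called, beside 0.00909% of all probe sets. At an unadjusted p under 0.05 there were 7 cytosolic members, 3 higher and 4 lower in siZNF326, and 4 mitochondrial members, 2 in each direction, beside 7.31% of all. Groups did not overlap for 7 cytosolic (14.9%) and 6 mitochondrial members (9.23%), against 9.45% of all probe sets (5.21% higher and 4.24% lower in siZNF326). Of the cytosolic members 4 were higher and 3 lower, and of the mitochondrial 2 were higher and 4 lower. The median difference was −0.027 in the cytosolic set, 0.085 in the mitochondrial set and 0.024 over all. The mitochondrial median was −0.087 without the second siDBC1 array and 0.25 without the third, so its sign followed that group's split.

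RPS15A, a small subunit protein, had the smallest p among core cytosolic members here. It read 6.95, 6.999 and 7.25 in siCTR, 6.73, 6.45 and 7.06 in siDBC1, and 7.07, 7.34 and 7.54 in the arrays labelled siZNF326. The siRNA groups met at 7.06 and 7.07 without overlap, and both overlapped siCTR. The difference was 0.57 (SE 0.18, limma adjusted p = 0.645). RPL36AL differed by 0.40, the copy RPL39L by 0.35, and the large subunit protein RPL14 by 0.37 on the probe set without overlap and by 0.30 on the other. RPL28, whose arrays overlapped, differed by 0.37. Without the second siDBC1 array RPL39L, RPL14 on its first probe set and RPL28 were each at 0.21.

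RPS13, of the small subunit, read 5.15, 5.51 and 5.95 in siCTR, 5.49, 6.32 and 5.34 in siDBC1, and 4.70, 5.02 and 5.17 in the arrays labelled siZNF326. It was lower on every siZNF326 than on every siDBC1 array, and the difference was −0.75 (SE 0.30, limma adjusted p = 0.669), or −0.45 without the second siDBC1 array. RPS4X and RPL18 differed by −0.38 and −0.19. Among mitochondrial members MRPL15 differed by −0.45 (limma adjusted p = 0.567), MRPS16 by −0.67 and MRPS34 by −0.32. MRPL33 differed by 0.83 and MRPS5 by 0.64. MRPS5 was at 0.32 without the second siDBC1 array, and MRPS34 at −0.20 without the third siZNF326 array. For MRPL15, MRPS16, MRPS34, MRPL33, RPS4X and RPL18 the arrays labelled siZNF326 overlapped neither other group, without a call in either comparison. Margins were narrow for MRPL33 (4.37 against 4.33 in siDBC1) and MRPS16 (8.97 against 9.0 in siCTR). The share of all probe sets that lie apart from both groups was not counted. The 95% interval lay within 2-fold for 40 of 47 cytosolic and 54 of 65 mitochondrial members.

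Genes that build or serve the ribosomes, taken from lists of known function, had 0 calls in every comparison. Of 40 measured assembly factors of the cytosolic ribosome, 30 had means above siCTR in siDBC1 (75%, median difference 0.17) and 31 in the arrays labelled siZNF326 (77.5%, median 0.16), beside 53.8% and 56.6% of all probe sets and 53.5% and 65.8% of those above the median level. Their median distance from siCTR per array was 0.14, −0.11 and 0.39 in siDBC1 and 0.39, 0.089 and 0.0036 in the other group. Over the probe sets above the median level it was 0.027, −0.20 and 0.19 in siDBC1, and 0.21, 0.048 and 0.022 in the other group. The highest arrays were those that stood apart over all probe sets, but the factors also lay above that background on the first siDBC1 array. NOP2, a methyltransferase of large subunit ribosomal RNA, differed by 0.43 in siDBC1 (limma adjusted p = 0.669), and RIOK2, a kinase of small subunit maturation, by −0.49. In the arrays labelled siZNF326 the small subunit factors BYSL and UTP3 differed by 0.32 and 0.73 and NOC4L by −0.22.

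Of 10 mitochondrial translation factors, 5 had means above siCTR in each siRNA group. LRPPRC, which stabilises mitochondrial messenger RNAs, differed by −0.86 in siDBC1 (limma adjusted p = 0.709), and the elongation factor TUFM by −0.40 in the arrays labelled siZNF326 (limma adjusted p = 0.314), with GFM1 at 0.52. Of 17 mitoribosome assembly factors, 7 had means above siCTR in siDBC1 and 9 in the arrays labelled siZNF326, where the small subunit chaperone ERAL1 differed by −0.37 (limma adjusted p = 0.460) and the GTPase MTG2 by −0.24. Of 3 mitoribosomal proteins whose symbols lie outside the rule, GADD45GIP1 differed by 0.33 in siDBC1 and −0.013 in the arrays labelled siZNF326. CHCHD1 differed by 0.54 in siDBC1 and 0.66 in the arrays labelled siZNF326 (SE 0.40), and its arrays overlapped siCTR in both. DAP3 differed by −0.15 and 0.035. Of 4 other genes of the TOP class (EIF3H, EIF3E, EEF1D and NAP1L1), 2 had means above siCTR in each siRNA group.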

How the data were processed

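Column-purified, DNase-treated total RNA was labelled by the Affymetrix whole-transcript protocol after removal of ribosomal RNA, per the labels' protocols. The authors deposited log2 expression values made with RMA on build hg18 annotation, per the submitters' processing notes, and its version is not given in the sources used here. The log base rests on the range of the values. No background or detection values were used, so low levels were not marked, and 23 of the 112 members share a value on at least 2 arrays. Symbols came from the platform annotation, and all 112 members matched RefSeq identifiers with unchanged symbols. The deposited values were fitted without filter or rescaling in limma 3.58.1 (lmFit and eBayes, R 4.3.3), with 9 arrays and 3 groups. Two-sided moderated p-values underwent Benjamini-Hochberg adjustment over all 22011 probe sets, with a call at an adjusted p below 0.05. The script was tested on simulated data. Nothing beyond the design text says that arrays came from separate cultures, so p-values measure the spread between these arrays. Groups did not overlap where the lowest array of one exceeded the highest of the other.

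Members and lists were chosen with earlier results of these data known, so sets are described by counts and medians without a set test. Members named were those called, the 4 largest differences in each direction without overlap, the 4 smallest p-values per set and comparison, some gene pairs and textbook members, and the extremes of level. Other members in the text were chosen after their values were seen. Alternatives were quantile normalization, arrays centred on their medians, probe sets above the lower quartile only, trended robust eBayes, 2 groups only, replicate block, and leaving out each array. Array numbers are shared between groups, but same-numbered arrays' deviations correlated at −0.30 to 0.40, so they were not taken as pairs. Promoter windows and sequences came from RefSeq on GRCh38.p14, with 24 of 26 core cytosolic and 58 of 65 mitochondrial symbols matched.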

Additional observations from a re-analysis of the deposited data

Results flagged for a closer look

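The arrays of the 2 siRNA groups lay on opposite sides of the siCTR mean for RPS15A and MRPL4. The siDBC1 mean of RPS15A was −0.32 from siCTR and the siZNF326 mean 0.25, so that siZNF326 was 0.57 above siDBC1 (limma adjusted p = 0.645). MRPL4 differed by 0.037 and −0.037, with siZNF326 minus siDBC1 at −0.075 (limma adjusted p = 0.813). Neither difference passed the test. Some arrays lay almost on the siCTR mean: for RPS15A the third siDBC1 array at −0.00034 and the first siZNF326 array at 0.0035, and for MRPL4 the second siZNF326 array at −0.00018. The share of all probe sets that meet this condition was not counted.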

How the results depend on the processing

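Members named for groups without overlap or for the smallest p-values kept direction and side of the threshold in all 642 values under the alternatives. Leaving out an array cannot turn the sign where groups do not overlap, so for those members that part was fixed in advance. The gene pairs, textbook members and extremes of level were not followed through the alternatives in this way. After quantile normalization 1 mitochondrial member was called in siZNF326 against siCTR (MRPL10, limma adjusted p = 0.0465, with 0.0465 to 0.872 over all settings), and in every other alternative 0 members were called. In siZNF326 against siCTR the cytosolic median was −0.093 and the mitochondrial −0.032 after quantile normalization, and the cytosolic −0.12 with centred arrays. The median of all probe sets was −0.039 and −0.059 under these settings, against 0.032 as deposited, so much of the move is common to the table. In siZNF326 against siDBC1 the cytosolic median was −0.057 after quantile normalization and −0.10 with centred arrays, and that of all probe sets −0.032 and −0.053. Leaving out 1 array gave cytosolic medians of −0.0048 to 0.081 in siDBC1 against siCTR, −0.036 to 0.044 in siZNF326 against siCTR, and −0.048 to 0.044 in siZNF326 against siDBC1. The cause of the latter was not tested. With the replicate block, 0 members of either set were called in any comparison. The background correction could not be varied. The number of arrays, 3 a group, limits the precision: the median 95% interval of a mitochondrial member reached 1.35-fold on either side.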
